A study of Mus musculus with 24 samples.

Results

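The genes that copy DNA and divide the cell were followed through macrophages and dendritic cells exposed to a STING agonist. The set held 54 genes, chosen by symbol from a list of replication and division genes, out of 54532 genes in the table, and every symbol matched 1 row. By role the list comprised 8 genes that license replication origins, 4 that switch on the replicative helicase, 11 of the replication fork, 4 that supply nucleotides and 3 that rebuild chromatin behind the fork. A further 5 genes regulate entry into S phase, 11 encode mitotic cyclins, kinases and their transcription factor, and 8 serve the spindle, chromosomes and mitotic exit.

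As background, a cell prepares for S phase by loading the ring of MCM proteins onto origins with CDC6 and CDT1, after which CDC45 and the GINS complex turn the ring into a moving helicase. E2F factors, held back by the retinoblastoma family until cyclins D and E act, drive the genes of this phase. Genes of G2 and mitosis are driven later through FOXM1 and B-MYB. The inhibitor p21, encoded by Cdkn1a, blocks the cyclin-dependent kinases, so transcripts of both waves usually fall when cells leave the cycle. Macrophages grown from bone marrow proliferate in response to M-CSF, and interferons are known to restrain that growth.

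RNA was sequenced from macrophages and dendritic cells that were both grown for 7 days from mouse bone marrow, the former in L929-conditioned medium (BMDMs) and the latter with GM-CSF and IL-4 (BMDCs), of mice on a C57BL/6N background. Cells carried the label WT, for Tmem173fl/fl mice, or CRE, for Tmem173fl/fl mice that also had a tamoxifen-inducible Cre under the myeloid Lyz2 promoter. Mice of both labels had floxed alleles. The study describes tamoxifen injection for mice of both genotypes, but does not state it for the donors of the bone marrow. Tmem173 encodes STING, the receptor for DMXAA in the mouse. The question for these genes was how far they were expressed in each cell type, and how far they fell under DMXAA in cells with and without Cre. The 8 groups were WT control, WT DMXAA, CRE control and CRE DMXAA in each cell type, with 3 libraries each. DMXAA was used at 40 µM per the series design, whereas the study's methods give the dose in another unit, so the concentration is uncertain, and the exposure time and the age of the mice are not stated for the sequenced cultures. Nothing in the labels says that the libraries of a group came from separate mice or cultures, so p-values measure the spread between these libraries, which may be technical.

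Total counts ranged from 15657347 to 18912887 per library. The 4 BMDM libraries numbered 3, 1 in each BMDM group, went against their label: 9 macrophage markers summed to 19.6 to 33.2 FPKM (fragments scaled to transcript length and library size, as deposited) in them, against 5960 to 13100 in the other 8, and 8 fibroblast markers to 1530 to 2370, against 9.08 to 111. They are shown apart, and BMDM tests used the 2 libraries numbered 1 and 2 of each group unless stated. Isg15, an interferon-stimulated gene, ran from 1.88 to 13.5 FPKM in control libraries outside number 3. It ran from 1130 to 3750 in the DMXAA libraries, so all of these carried the response. Its DMXAA levels did not overlap between the labels in BMDMs, at 3680 to 3750 FPKM in WT and 1130 to 1260 in CRE. In BMDCs they overlapped, at 2320 to 3180 in WT and 2150 to 2580 in CRE. Tmem173, the targeted gene, was 9.91 to 14.7 FPKM in WT control and 8.76 to 10.4 in CRE control BMDMs, which overlapped, and 22.8 to 31.8 against 9.12 to 10.1 with DMXAA, whereas in BMDCs the ranges of WT and CRE overlapped (28.8 to 51.6 against 19.7 to 36.8 in control, 34.6 to 55.3 against 24.3 to 35.1 with DMXAA). In BMDCs, 6 of 7 dendritic cell markers averaged at least 1 FPKM. All BMDC libraries also held mast cell and basophil RNA. The 4 markers of that list summed to 16.9 to 26.6 FPKM in the CRE libraries numbered 2 and 59.9 to 263 in the other 10. In BMDMs numbered 1 and 2 they summed to 0.172 to 0.548. Both BMDC libraries of the CRE label numbered 2 also stood apart, with 71.6 to 84.4 FPKM over 8 granulocyte markers against 2.81 to 16.7 in the other 10 BMDC libraries, and 1380 to 1600 FPKM over the macrophage list against 4560 to 6380. The 2 WT BMDM libraries numbered 2 held 104 to 111 FPKM of the fibroblast list, against 9.08 to 13.8 in the other 6. The part of these cells in the results was not tested, and values without the libraries numbered 2 concerned are given below.

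The windows around the transcription starts are shown first, because E2F motifs and the CHR element are known marks of S phase and mitotic promoters. Of the 54 members, 44 had a promoter window in the RefSeq table (mouse build GRCm38.p6, 250 bases before to 50 bases after the start). An E2F motif, searched as TTTGGCGC or TTTCCCGC on both strands, was present in 9 of 26 S phase members and in 0 of 15 mitotic members, against 1.8% of the 27025 genes with a window. The CHR element, searched as TTTGAA on both strands, lay together with CCAAT in 11 of 15 mitotic members (73.3%) and in 2 of 26 S phase members, against 7.97% of these genes. Counted over all 32851 windows the shares were 1.56% and 6.95%. Motifs were counted separately and can share bases at their ends. Mcm5 and Cdc6 are printed for the E2F motif, Cdc20 and Cdk1 for CHR and CCAAT, and Rfc3, which rose while other fork genes fell, was added after its values were seen. Capitals mark the E2F motif in Mcm5, Cdc6 and Rfc3, and CHR or CCAAT in Cdc20 and Cdk1, in either orientation. In sequence order, Mcm5 lies at chr8:75109259-75109558 on the plus strand, Cdc6 at chr11:98907901-98908200 on the plus strand, Cdc20 at chr4:118437294-118437593 on the minus strand, Cdk1 at chr10:69352863-69353162 on the minus strand and Rfc3 at chr5:151651159-151651458 on the minus strand. The gene model of Cdc6 used for the counts starts further upstream, at 98907801, so the Cdc6 window and its E2F motif lie inside that model.
Mcm5: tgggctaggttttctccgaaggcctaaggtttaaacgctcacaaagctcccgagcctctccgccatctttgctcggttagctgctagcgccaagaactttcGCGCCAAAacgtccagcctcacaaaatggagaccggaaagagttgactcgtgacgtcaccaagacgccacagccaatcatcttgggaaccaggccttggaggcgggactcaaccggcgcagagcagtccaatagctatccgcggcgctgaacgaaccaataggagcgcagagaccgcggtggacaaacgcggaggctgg
Cdc6: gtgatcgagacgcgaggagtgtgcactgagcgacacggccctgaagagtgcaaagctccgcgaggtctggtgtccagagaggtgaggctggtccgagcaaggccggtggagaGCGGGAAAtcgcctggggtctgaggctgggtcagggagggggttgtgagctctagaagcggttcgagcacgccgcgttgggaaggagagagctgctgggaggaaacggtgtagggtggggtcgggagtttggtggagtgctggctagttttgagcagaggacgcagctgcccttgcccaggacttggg
Cdc20: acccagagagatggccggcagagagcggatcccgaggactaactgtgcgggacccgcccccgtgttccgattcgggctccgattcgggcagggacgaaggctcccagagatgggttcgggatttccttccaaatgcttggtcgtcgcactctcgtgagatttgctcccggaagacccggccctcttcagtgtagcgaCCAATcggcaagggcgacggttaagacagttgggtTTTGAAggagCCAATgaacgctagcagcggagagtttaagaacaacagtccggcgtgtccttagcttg
Cdk1: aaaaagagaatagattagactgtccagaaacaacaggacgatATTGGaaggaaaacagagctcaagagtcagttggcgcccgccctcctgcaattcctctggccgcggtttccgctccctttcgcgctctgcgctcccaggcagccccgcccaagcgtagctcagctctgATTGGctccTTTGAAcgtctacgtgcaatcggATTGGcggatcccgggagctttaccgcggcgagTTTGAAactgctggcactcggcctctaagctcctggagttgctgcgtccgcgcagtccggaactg
Rfc3: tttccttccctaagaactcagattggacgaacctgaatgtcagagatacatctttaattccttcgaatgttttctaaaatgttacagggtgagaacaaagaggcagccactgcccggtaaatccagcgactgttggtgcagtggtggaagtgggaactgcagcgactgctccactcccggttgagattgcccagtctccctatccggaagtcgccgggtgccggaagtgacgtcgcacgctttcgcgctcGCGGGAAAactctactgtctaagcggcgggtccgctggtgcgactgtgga

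The marked letters are a description of these windows and not a binding site. In WT BMDCs, 7 of the 9 members with the E2F motif were lower under DMXAA, with a median log2 fold change of -1.03, against -1.12 for the 34 tested members without it. Members with both CHR and CCAAT had a median of -1.5 over 12 tested, against -1.0 over the 31 without. In WT BMDMs the medians were -1.97 with and -1.61 without the E2F motif, and -1.80 with and -1.58 without CHR and CCAAT. The medians were below zero with and without either element, and the difference was not tested.

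In untreated cells the median of the 54 members was 10.9 FPKM in WT control BMDMs, 6.55 in CRE control BMDMs, 6.42 in WT control BMDCs and 5.12 in CRE control BMDCs. Pcna, the sliding clamp of DNA polymerases, was the most abundant member in control BMDMs, at 289 and 184 FPKM in WT and 300 and 295 in CRE. In control BMDCs it ran from 70.6 to 91.2 FPKM, and there Cdkn1a led instead, at 183, 181 and 184 FPKM in WT and 188, 164 and 175 in CRE. Control BMDMs had 43.0 to 49.9 FPKM of Cdkn1a, so the cell types did not overlap for either gene.

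Before treatment, members called lower in BMDCs than in BMDMs outnumbered those called higher. With all BMDC libraries of the WT label, and with libraries numbered 3 left out of BMDMs, 25 of 54 members were lower and 2 higher in BMDCs by edgeR's quasi-likelihood test with Benjamini-Hochberg adjustment, where 13.9% of 12730 tested genes were lower and 14.6% higher. The median member differed by -0.88 on the log2 scale, against 0.02 for all genes. Fewer cycling cells and less of these transcripts per cell cannot be told apart in bulk RNA. Lower members were 7 of 8 licensing genes, 2 of 4 helicase genes, 7 of 11 fork genes, 1 of 4 nucleotide genes, 3 of 3 chromatin genes, 3 of 5 G1/S regulators, 1 of 11 mitotic kinase and cyclin genes and 1 of 8 spindle genes. The medians of the fork and spindle genes were alike, at -0.80 and -0.79, and the roles were not tested against each other. Among the other genes of the pathways, 12 of 37 replication and 8 of 35 mitosis genes were lower. Without BMDM WT control replicate 1 the count of called members was 13 instead of 27.

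Mcm6, a subunit of the MCM ring, was 67.0 and 41.7 FPKM in WT control BMDMs and 16.6, 17.4 and 15.4 in WT control BMDCs, a log2 difference of -1.73 ± 0.17 (SE; adjusted p = 2.6e-06). Cdt1, which loads that ring, was 47.7 and 53.9 FPKM against 9.41, 10.2 and 8.43 (-2.45 ± 0.20, adjusted p = 3.44e-07). BMDCs lay below BMDMs in every library for both licensing genes. Ccnd1, the D-type cyclin, showed the largest difference among called members, at -2.58 ± 0.60, although its WT BMDM libraries spread from 29 to 81.9 FPKM and the 3 BMDC libraries from 8.85 to 9.67. Gins1, a GINS subunit, was lower by -1.93 ± 0.31. Cdkn1a was higher in BMDCs by 1.88 ± 0.15 (adjusted p = 3.4e-07), and Ccne1, the E-type cyclin that fires S phase, by 0.93 ± 0.25.

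In the CRE label the same comparison called 17 members lower and 2 higher, where 13.2% of genes were lower and 15% higher, with a median of -0.64. Cdkn1a and Ccne1 were again the higher members, at 2.0 ± 0.15 and 1.22 ± 0.26, and Ccnd1 (-2.91 ± 0.61), Cdt1 (-2.02 ± 0.20) and Gins1 (-2.0 ± 0.32) led the lower ones. None of the 11 mitotic kinase and cyclin genes and none of the 8 spindle genes was called in this label by edgeR (1 and 0 of them at an unadjusted p under 0.05). DESeq2 called 23 members in all, against 19.

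**Figure D1:**
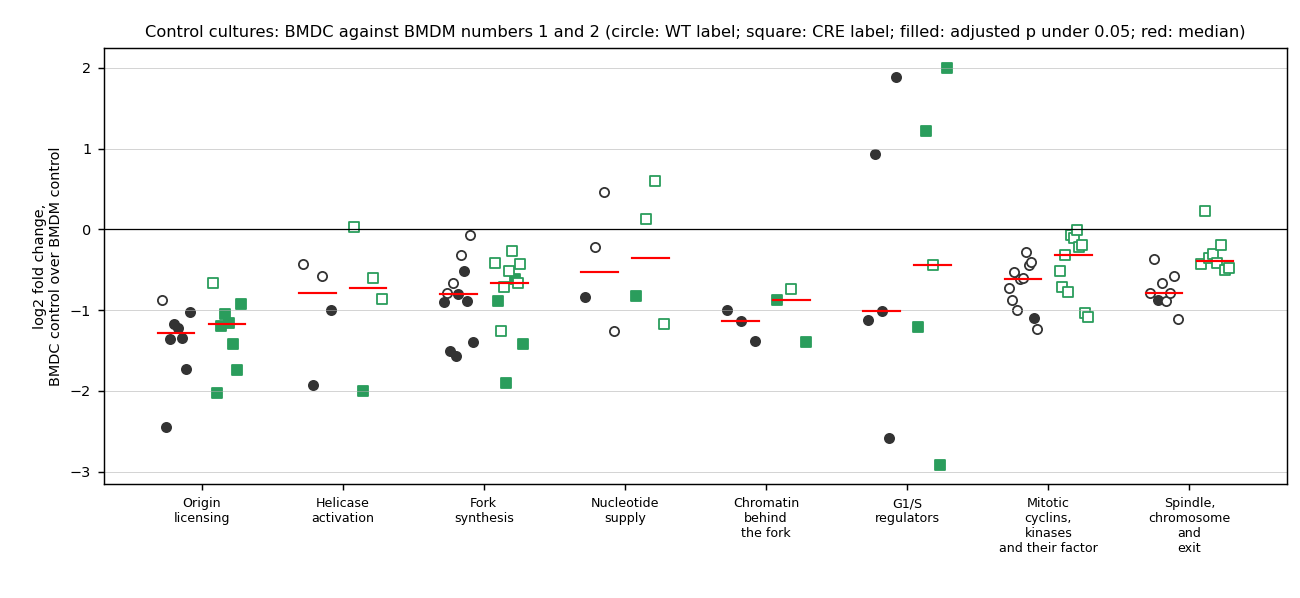
Log2 difference of control BMDCs from control BMDMs for each member, grouped by role, for the WT and CRE labels. Licensing genes lie below zero, with Cdt1 at -2.45 and -2.02, whereas Cdkn1a lies at 1.88 and 2.0.

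DMXAA lowered most of the set in WT BMDCs. Of 52 members tested, 32 fell and 3 rose, where 15.2% of 12126 genes fell and 17% rose, and the median member changed by -1.04 against 0.01 for all genes. Pole and Ttk did not reach the minimum of 1 FPKM in 3 libraries, and Cdc6, Prim1 and Fen1 reached it through control libraries alone, so that passing the filter already required a difference. In FPKM, 39 of 54 members had all DMXAA libraries below all control libraries, where 24.3% of genes at 1 FPKM or more in at least 3 of these libraries did. Members were counted without that filter.

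Licensing genes fell in 7 of 8 cases. Mcm2, a subunit of the MCM ring, was 5.65, 6.04 and 5.16 FPKM in control and 1.76, 2.14 and 1.54 with DMXAA, a log2 fold change of -1.65 ± 0.22 (SE; edgeR, adjusted p = 0.000211). Mcm5, whose window is printed above, went from 13.1, 12.8 and 12.2 to 8.03, 5.67 and 6.71 FPKM (-0.93 ± 0.24, adjusted p = 0.012), a call that was lost without DMXAA replicate 2. No control library overlapped with a DMXAA library for either. Cdc6 was 2.16, 2.87 and 2.33 FPKM in control and 0.668, 0.841 and 0.431 with DMXAA (-1.95 ± 0.49), although it passed the filter through control libraries alone. Cdt1 was the exception, at 8.43 to 10.2 FPKM in control and 9.21 to 10.3 with DMXAA.

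Among helicase genes, Cdc45 fell from 3.84, 4.33 and 3.66 to 1.39, 2.15 and 1.55 FPKM (-1.23 ± 0.27, adjusted p = 0.00488), while Gins1, Gins2 and Mcm10 were not called. At the fork 7 of 10 tested genes fell. Pold1, the catalytic subunit of polymerase delta, changed by -1.81 ± 0.24 and Prim1, the primase, by -1.74 ± 0.24, although Prim1 passed the filter through control libraries alone. Pcna showed no call, at 72.2 to 91.2 FPKM in control and 68.8 to 95.7 with DMXAA, and Rfc3 rose, as described below.

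Of the nucleotide genes, Rrm2, the regulated subunit of ribonucleotide reductase, fell from 24.2, 26.1 and 20.4 to 8.82, 6.25 and 3.64 FPKM (-1.95 ± 0.42, adjusted p = 0.00459), and Rrm1 by -1.25 ± 0.21. Uhrf1, which helps to copy DNA methylation behind the fork, fell from 8.16, 9.41 and 8.42 to 4.25, 2.2 and 2.33 FPKM (-1.60 ± 0.35). Control and DMXAA libraries did not overlap for any of these 3 genes. E2f1, which drives S phase genes, fell from 9.35, 9.70 and 9.19 to 5.22, 4.72 and 5.78 FPKM (-0.87 ± 0.18, adjusted p = 0.00328). Ccne1 had 11.4 to 14.3 FPKM in control and 14.3 to 14.7 with DMXAA and was not called.

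The 3 largest falls in WT BMDCs were those of mitotic genes. Cdc20, which activates the anaphase-promoting complex, dropped from 10, 8.67 and 8.07 to 1.35, 1.41 and 1.77 FPKM, a log2 fold change of -2.58 ± 0.30 (adjusted p = 8.47e-05), the largest fall among members. The mitotic cyclins Ccna2 and Ccnb1 changed by -2.26 ± 0.36 and -2.13 ± 0.31, Ccnb1 from 7.70, 5.72 and 4.47 to 1.94, 1.11 and 1.12 FPKM. All 3 genes separated control from DMXAA libraries. Cdk1, the kinase these cyclins activate, fell from 8.08, 7.58 and 5.93 to 3.62, 4.19 and 2.92 FPKM (-1.03 ± 0.26, adjusted p = 0.00979). Plk1, which drives mitotic entry, fell from 7.77, 8.24 and 7.39 to 2.41, 3.01 and 1.45 FPKM (-1.79 ± 0.46). Birc5, the survivin subunit of the chromosomal passenger complex, fell from 7.0, 5.99 and 5.85 to 1.93, 2.35 and 1.34 FPKM (-1.77 ± 0.27), and Top2a, which untangles chromosomes, from 11.6, 11.1 and 8.29 to 2.98, 2.77 and 2.33 FPKM (-1.96 ± 0.41). Groups did not overlap for these 4 genes either.

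Mki67, the usual marker of cycling cells, was not called in the same BMDC libraries. It was 5.09, 6.10 and 5.43 FPKM in WT control and 4.73, 4.52 and 5.63 with DMXAA (-0.18 ± 0.45, adjusted p = 0.81), with overlapping groups. Tk1, the thymidine kinase of S phase, likewise had 3.18 to 3.97 FPKM in control and 2.26 to 3.62 with DMXAA (-0.26 ± 0.49). Cenpe, a kinetochore motor, was at 1.57 to 2.01 FPKM in control and 1.26 to 1.87 with DMXAA.

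Same-numbered BMDC libraries of a label deviated together, and a replicate block within the label raised the called members of the WT response from 35 to 43. The block added falls of Ccne2 (-0.94 ± 0.26, adjusted p = 0.0127), Ccnb2 (-1.19 ± 0.20, adjusted p = 0.000883), Foxm1 (-1.12 ± 0.24, adjusted p = 0.00368), Bub1b (-0.80 ± 0.26), Tyms (-0.67 ± 0.20) and Rfc5 (-0.35 ± 0.12). It also added rises of Ccnd1 (1.24 ± 0.21, adjusted p = 0.000988) and Gins2 (0.61 ± 0.15, adjusted p = 0.00823). Without the block these had adjusted p-values from 0.059 to 0.188, Ccnd1 having gone from 8.85, 9.30 and 9.67 to 16.9, 29.7 and 21.8 FPKM. Foxm1, the mitotic transcription factor, was 1.78, 1.62 and 1.88 FPKM in control and 1.08, 0.650 and 0.783 with DMXAA, and Ccne2 3.76, 4.30 and 3.26 against 2.62, 2.22 and 1.33.

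In BMDCs of the CRE label, falls also outnumbered rises. Of 52 members 27 fell and 4 rose, where 11.4% of genes fell and 14.0% rose, and the median was -0.86. The labels share the filter, which Cdc6, Prim1 and Fen1 passed through control libraries alone. The falls of Cdc6 and Prim1 called here are therefore limited as in WT. Cdc20 fell from 7.54, 4.31 and 8.79 to 1.38, 2.03 and 1.23 FPKM (-2.17 ± 0.30, adjusted p = 0.000327), followed by Rrm2 from 20.7, 7.0 and 27.6 to 4.6, 4.46 and 4.73 (-2.03 ± 0.43) and Kif11, the spindle motor, with -1.98 ± 0.35. The second of the 3 control libraries was the lowest for all of these. Gins2 was called higher here, from 3.25, 3.19 and 3.51 to 4.37, 6.06 and 7.22 FPKM (0.80 ± 0.22, adjusted p = 0.0208). In FPKM 22 members had no overlap in the downward direction, where 16.1% of genes had none. As in WT, only the genes of that share were filtered by FPKM.

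The CRE BMDC libraries numbered 2 were those with more granulocyte markers. The control library held 0.547 FPKM of Cdc6, against 2.02 and 3.06 in the other CRE controls, 6.55 of Mcm5 against 12.1 and 14.1, 2.86 of Top2a against 8.39 and 10.4, and 2.05 of Mki67 against 5.16 and 6.05. Without both of these libraries 38 members were called instead of 31, of which 34 fell. A fit on CRE BMDC libraries only called 20. With the block within the label 41 were called, the block adding falls of Ccne2 (-0.89 ± 0.26), Cdk1 (-0.54 ± 0.18), Ccnb2 (-1.06 ± 0.21), Foxm1 (-1.06 ± 0.26), Bub1b, Lig1, Tyms and Chaf1b, and rises of Ccnd1 (1.65 ± 0.22) and Mcm10 (0.51 ± 0.17).

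No member was called between the labels in BMDCs. By edgeR 0 of 52 were called for the difference of the DMXAA response (1 at an unadjusted p under 0.05, 0 by DESeq2), 0 between CRE and WT control (0 and 0) and 0 between CRE and WT DMXAA (0 and 0). Over all genes 0.0% were called in each of these 3 comparisons. Mcm2 differed in its response by -0.05 ± 0.30 and Cdkn1a by -0.10 ± 0.19. BMDC libraries of different labels were closer than replicates in 4 cases, WT 3 with CRE 1 and WT 2 with CRE 3 in control and in DMXAA, with a chi-square of 3.59 to 5.3 per gene (1 being counting noise) against 16.5 or more within a BMDC group. The responses of the labels had a Pearson r of 0.97 over 52 members, given as a description across genes that are not independent.

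**Figure D2:**
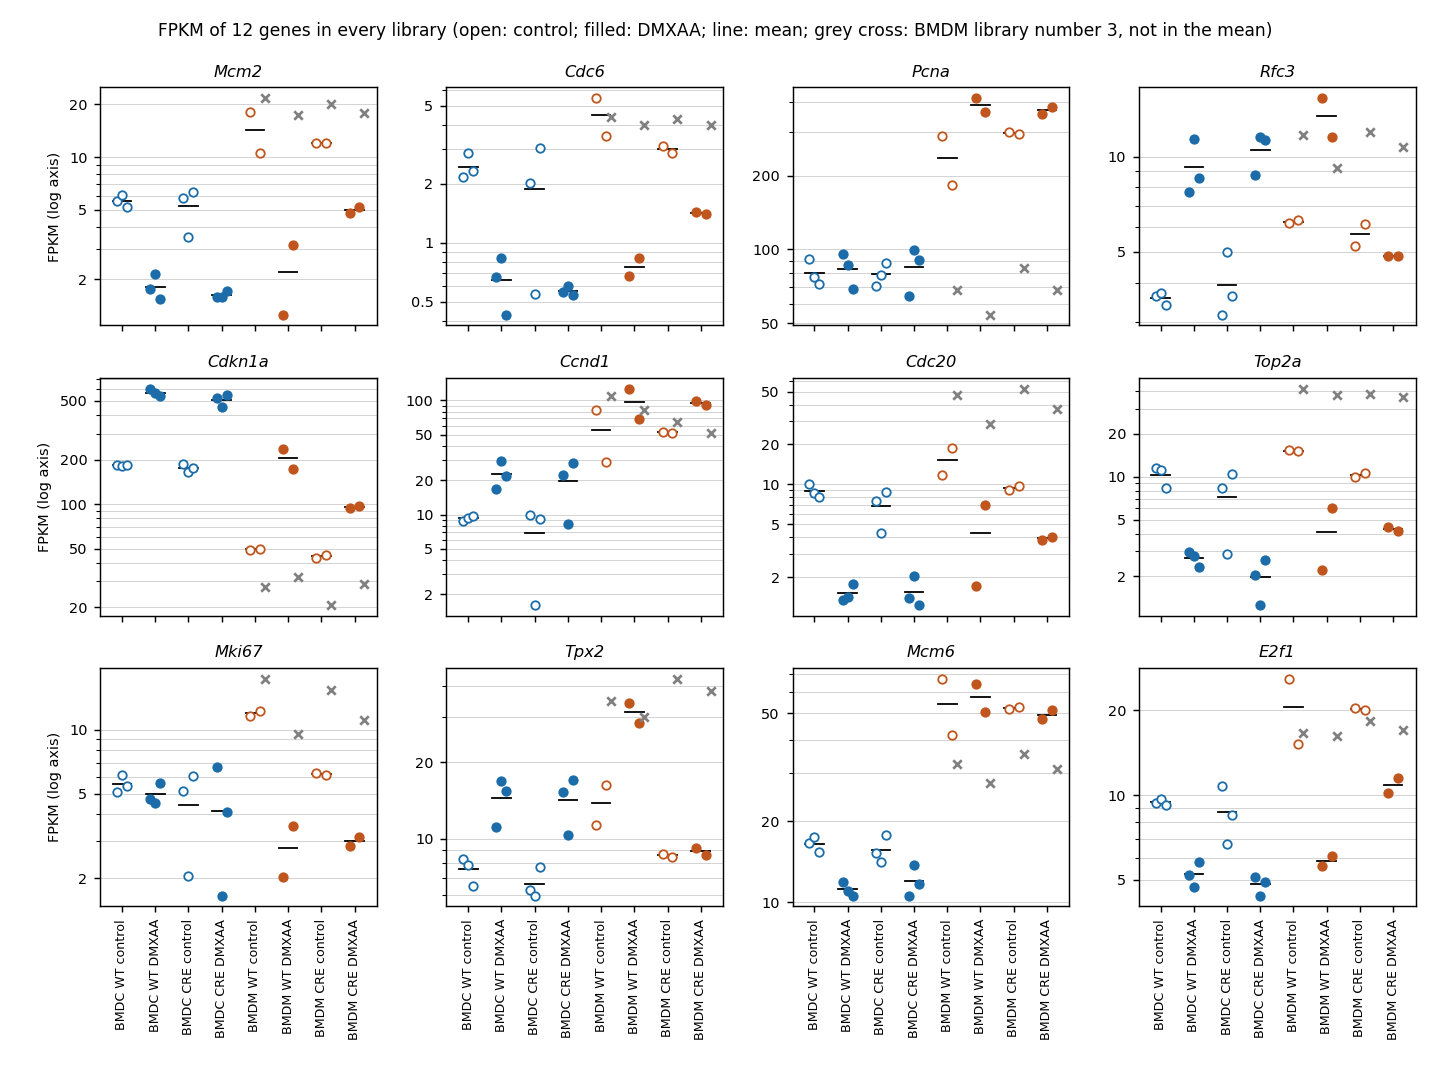
FPKM of 12 members in every library on a log axis, with control libraries as open and DMXAA libraries as filled points, and BMDM libraries numbered 3 as grey crosses. Mcm2 and Cdc20 separate control from DMXAA in WT BMDCs, whereas Mki67 overlaps there, at 4.52 to 5.63 FPKM with DMXAA against 5.09 to 6.10 in control.

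In WT BMDMs most of the set fell as well. Of 53 members tested, 35 fell and 4 rose, where 21.7% of 10938 genes fell, 18.7% rose and 40.4% were called in all, with a median of -1.62 against -0.08 for all genes. Fen1 did not pass the filter, and Pole and Ttk passed through control libraries alone. In FPKM 42 members had both DMXAA libraries below both controls, where 28.8% of genes at 1 FPKM or more in at least 3 of these libraries did. Members were counted without that filter. Cdc6, Pole and Ttk reached 1 FPKM in the controls only, so genes like them are missing from the share. With the libraries numbered 3 included no member was called.

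Among licensing genes 6 of 8 fell. Mcm2 was 18.1 and 10.6 FPKM in control and 1.26 and 3.13 with DMXAA (-2.79 ± 0.44, adjusted p = 0.00278), and Cdc6 5.48 and 3.51 against 0.676 and 0.834 (-2.66 ± 0.26, adjusted p = 0.000371). Mcm5 was 38.5 and 26 FPKM against 7.44 and 10.1 (-1.97 ± 0.23), and Mcm3, Mcm4 and Mcm7, its partners in the ring, changed by -2.40, -1.93 and -2.60. Mcm6 did not share that fall, with 67.0 and 41.7 FPKM in control and 64.5 and 50.6 with DMXAA (-0.02 ± 0.22, adjusted p = 0.962). Control and DMXAA groups overlapped for Mcm6 and Cdt1 and for no other licensing gene. Cdc45 fell from 5.43 and 5.17 to 0.908 and 1.56 FPKM (-2.19 ± 0.28).

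Uhrf1 had the largest fall of all members, from 28.2 and 17 to 1.72 and 4.5 FPKM (-2.94 ± 0.45, adjusted p = 0.00251). All 4 nucleotide genes fell, Rrm2 from 27.6 and 27.0 to 1.79 and 7.54 FPKM (-2.62 ± 0.57) and Tk1 from 9.23 and 8.26 to 1.07 and 1.96 (-2.61 ± 0.28, adjusted p = 0.000547). The groups stood apart for each of these. Lig1, which seals the lagging strand, changed by -1.53 ± 0.18, Prim1 by -2.36 ± 0.39 and Pold1 by -2.37 ± 0.37. E2f1 fell from 25.8 and 15.2 to 5.61 and 6.10 FPKM (-1.90 ± 0.24, adjusted p = 0.00119), and Ccne2, the second E-type cyclin, from 9.11 and 6.04 to 2.35 and 2.91 (-1.62 ± 0.25). Ccne1 was 7.06 and 6.78 FPKM in control and 8.01 and 9.44 with DMXAA, and was not called.

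Among mitotic genes, Mki67 fell from 11.6 and 12.3 to 2.02 and 3.54 FPKM (-2.19 ± 0.26, adjusted p = 0.000887), and Top2a from 15.4 and 15.2 to 2.21 and 6.02 (-1.98 ± 0.41). Cdc20 changed from 11.8 and 18.9 to 1.70 and 6.93 FPKM (-1.91 ± 0.57), Cdk1 from 10.7 and 12.8 to 3.14 and 6.43 (-1.39 ± 0.32), and Birc5 from 8.84 and 12.8 to 2.31 and 5.31 (-1.59 ± 0.39). The second WT DMXAA library was the higher of the pair for each of these genes. The call of Birc5 was lost without WT control replicate 2. Ccnb1 (7.19 and 9.88 against 1.59 and 5.96 FPKM), Plk1 (11.5 and 12.3 against 2.29 and 7.81) and Foxm1 (4.58 and 3.64 against 1.11 and 3.08) were not called, at adjusted p = 0.106, 0.0701 and 0.0883.

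CRE BMDMs had 14 calls against 39 in WT, an order that turned to 49 against 24 when only the groups compared were fitted. Of 53 members 13 fell and 1 rose, where 3.35% of genes fell and 7.93% rose, and the median was -1.06. When any 1 of the 4 CRE libraries was left out, 0 to 1 members were called. DESeq2 called 31. In FPKM 49 of 54 members had both DMXAA libraries below both controls, where 37.6% of genes did. As in WT, only the genes of that share were filtered by FPKM.

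The members called lower were Cdc6, Mcm4, Mcm5, Mcm7, Cdc45, Pola1, Rpa2, Lig1, Rrm1, Tk1, Chaf1a, Ttk and Mki67. Tk1 fell from 6.24 and 6.30 to 1.60 and 1.79 FPKM (-1.91 ± 0.27, adjusted p = 0.00646), Lig1 from 14.8 and 15.9 to 5.51 and 5.82 (-1.46 ± 0.18, adjusted p = 0.00365), and Ttk, a spindle checkpoint kinase, by -1.40 ± 0.36 at the threshold, although Ttk passed the filter through control libraries alone. Mcm5 fell from 29.1 and 29.6 to 10.7 and 12.3 FPKM (-1.38 ± 0.23), and Cdc6 from 3.13 and 2.89 to 1.44 and 1.41 (-1.10 ± 0.24). Mki67 fell from 6.25 and 6.15 to 2.85 and 3.13 FPKM (-1.07 ± 0.25, adjusted p = 0.0402). All of these groups were separate, and the 2 CRE libraries of a group lay close together, with a biological coefficient of variation of 5.17% in CRE BMDMs against 30% in WT BMDMs.

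Others missed the threshold with values that did not overlap. Mcm2 was 12 and 12 FPKM in control and 4.81 and 5.20 with DMXAA (-1.28 ± 0.41, adjusted p = 0.0941), Uhrf1 16.2 and 15.6 against 7.50 and 6.69 (-1.19 ± 0.42), and Top2a 10 and 10.6 against 4.47 and 4.16 (-1.28 ± 0.40). E2f1 was 20.4 and 20 FPKM against 10.2 and 11.5 (adjusted p = 0.0511), and Cdk1 8.16 and 8.12 against 3.84 and 4.11 (adjusted p = 0.0806).

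**Figure D3:**
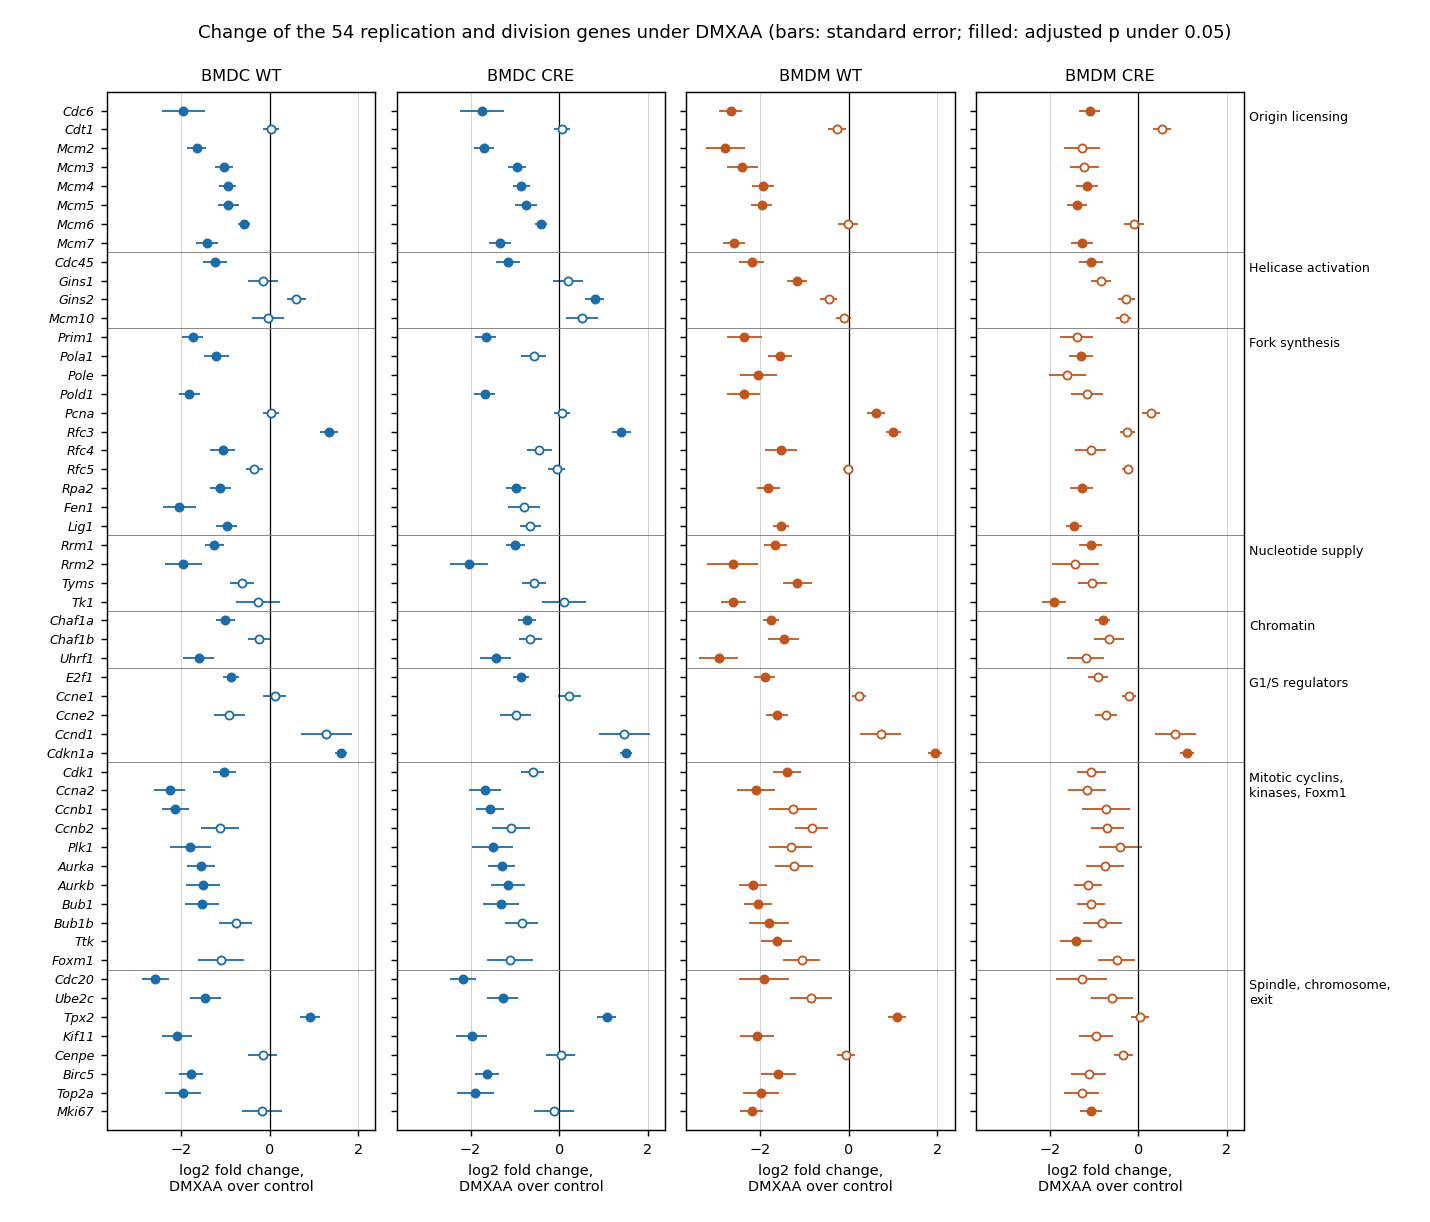
Log2 fold change of DMXAA over control with its SE for all members, in the WT and CRE responses of BMDCs and BMDMs, ordered by role. Falls prevail in all 4 responses, with Cdc20 at -2.58 in WT BMDCs and Uhrf1 at -2.94 in WT BMDMs, and Cdkn1a is above zero in all 4, at 1.61, 1.51, 1.95 and 1.09.

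Cdkn1a was the 1 member called higher in all 4 responses. Cdkn1a rose from 183, 181 and 184 to between 538 and 605 FPKM in WT BMDCs (1.61 ± 0.14, adjusted p = 9.23e-06) and from 188, 164 and 175 to 523, 452 and 548 in CRE BMDCs (1.51 ± 0.14). In BMDMs it rose from 48.7 and 49.9 to 237 and 173 FPKM in WT (1.95 ± 0.16, adjusted p = 0.000182) and from 43.0 and 45.4 to 93.5 and 97.8 in CRE (1.09 ± 0.16, adjusted p = 0.00658). No DMXAA library overlapped with a control library of its group. The CRE BMDM call was lost without any 1 of the 4 CRE libraries.

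Rfc3, a subunit of the clamp loader, rose while its partner Rfc4 fell. It went from 3.64, 3.72 and 3.41 to 7.75, 11.4 and 8.59 FPKM in WT BMDCs (1.34 ± 0.21, adjusted p = 0.000608), from 3.17, 4.99 and 3.63 to 8.73, 11.5 and 11.3 in CRE BMDCs (1.40 ± 0.21) and from 6.16 and 6.29 to 15.3 and 11.5 in WT BMDMs (1.0 ± 0.17, adjusted p = 0.00381). In CRE BMDMs it was 5.23 and 6.14 FPKM in control and 4.85 and 4.84 with DMXAA (-0.25 ± 0.17, adjusted p = 0.367). Every DMXAA library lay above every control library in 3 responses and below them in the fourth. Rfc4 changed by -1.06 ± 0.28 in WT BMDCs and -1.53 ± 0.36 in WT BMDMs, and Rfc5 by -0.35 and -0.02.

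Tpx2, which builds spindle microtubules and activates Aurora A, showed the same order. It rose from 8.34, 7.87 and 6.53 to 11.1, 16.8 and 15.4 FPKM in WT BMDCs (0.91 ± 0.22, adjusted p = 0.00922), from 6.28, 5.97 and 7.70 to 15.3, 10.3 and 17 in CRE BMDCs (1.07 ± 0.22) and from 11.3 and 16.3 to 34.3 and 28.6 in WT BMDMs (1.08 ± 0.20). In CRE BMDMs it had 8.70 and 8.46 FPKM in control and 9.22 and 8.58 with DMXAA (0.03 ± 0.20). Aurka, its kinase, changed the other way in BMDCs, by -1.55 ± 0.31 in WT and -1.30 ± 0.31 in CRE. Scaling by library totals in place of TMM, which put the median of all genes at -0.36 in WT BMDCs, left Tpx2 there at 0.55 and without a call.

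Pcna passed the threshold in 1 of the 4 responses, WT BMDMs, from 289 and 184 to 414 and 364 FPKM (0.62 ± 0.20, adjusted p = 0.0452). That call was lost in 6 of 14 alternatives, and scaling by library totals left 0.09. In CRE BMDMs Pcna was 300 and 295 FPKM in control and 356 and 382 with DMXAA. Ccnd1 was 81.9 and 29 FPKM in WT BMDM control and 127 and 68.3 with DMXAA, and 53.3 and 51.7 against 98.4 and 91.3 in CRE, with no call in either.

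Between the labels of BMDMs, few members differed by test. Before treatment 0 of 53 members were called by edgeR (11 at an unadjusted p under 0.05, 1 by DESeq2), where 0.064% of genes were called (0.0457% higher and 0.0183% lower), and the median was -0.53. Mki67 was 11.6 and 12.3 FPKM in WT control and 6.25 and 6.15 in CRE control (-0.99 ± 0.25, adjusted p = 0.49), and Tpx2 11.3 and 16.3 against 8.70 and 8.46. Without both WT libraries numbered 2, those with the higher fibroblast list, 45 members were called, in a fit whose residual spread came from the CRE libraries alone.

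With DMXAA 3 members were higher and 6 lower in CRE than in WT BMDMs, where 20% of genes were called, 9.69% higher and 10.3% lower. Mcm7 (0.99 ± 0.25), Cdc6 (0.94 ± 0.25) and E2f1 (0.93 ± 0.24) were higher, Cdc6 at 1.44 and 1.41 FPKM against 0.676 and 0.834. Tpx2 (-1.79 ± 0.20), Rfc3 (-1.43 ± 0.17), Cenpe (-1.08 ± 0.21), Cdkn1a (-1.07 ± 0.16), Ccne1 (-1.03 ± 0.16) and Mcm10 (-0.81 ± 0.17) were lower. The lower members were 11.3% of those tested, near the share of all genes, so their count is not particular to the set. The higher members are a share below that of all genes, and 0 were higher without WT DMXAA replicate 1, CRE DMXAA replicate 1 or CRE DMXAA replicate 2. The split was 4 higher and 5 lower with library totals, and 2 and 7 with the median of ratios. The count also depended strongly on which library was left out, in fits where an arm kept 1 library.

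The DMXAA response itself differed between the labels for 1 member, Rfc3, by -1.26 ± 0.24 (adjusted p = 0.0387), where 4.22% of genes were called, 1.64% higher and 2.59% lower. DESeq2 called 7 members. By edgeR 15 members had an unadjusted p under 0.05, among them Cdc6 (1.56 ± 0.35, adjusted p = 0.0584), Cdkn1a (-0.86 ± 0.22, adjusted p = 0.0818), Tpx2 (-1.05 ± 0.28, adjusted p = 0.0908) and Mki67 (1.12 ± 0.35, adjusted p = 0.134). The median member differed by 0.58, against 0.04 for all genes. The count of calls depended strongly on which library was left out. In those fits an arm kept 1 library, which was assumed to vary like the others, so their calls are not read as differences.

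Between the cell types, the WT responses mostly had the same sign. Over the 51 members tested in both, 49 changed in the same direction, 26 were called lower in both, and Pearson's r was 0.79 and Spearman's rho 0.65, a description across genes of groups that share no library. In the CRE label 44 of 51 had the same sign, with r of 0.69. The lists of falls shared 26 of 32 BMDC and 26 of 35 BMDM members in WT. Falls made up 61.5% of tested members in WT BMDCs and 66% in WT BMDMs, so many shared calls come with these shares alone. The same counts were not made over all genes, so they do not show a likeness particular to the members.

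Tests of the difference called 0 of 54 members in WT by edgeR (15 at an unadjusted p under 0.05, 4 by DESeq2), where 2.99% of genes were called, and 1 of 54 in CRE, where 0.691% were. Tk1 differed by 2.32 ± 0.71 in WT (adjusted p = 0.105) and Mki67 by 1.97 ± 0.65 (adjusted p = 0.133), with a fall called in BMDMs and none in BMDCs. With a block within cell type and label 8 members were called in WT. The member called in CRE was Rfc3, at 1.66 ± 0.30 (adjusted p = 0.0166), with a rise called in BMDCs of that label and none in BMDMs.

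**Figure D4:**
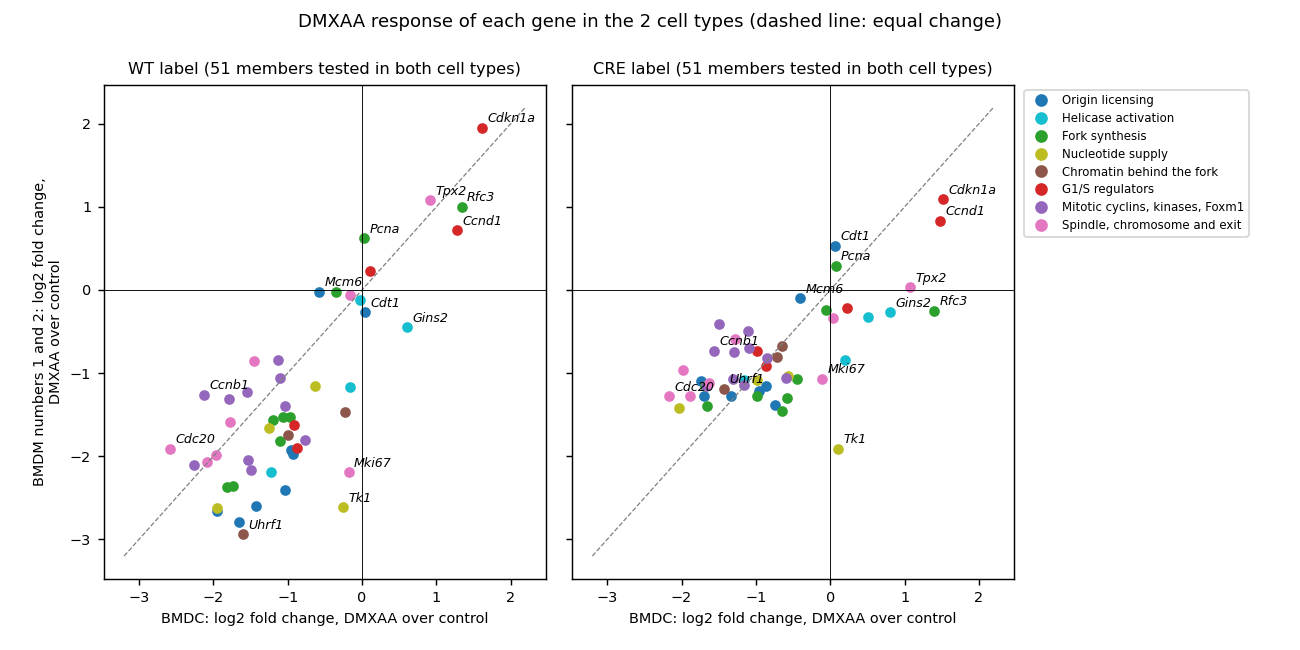
Log2 fold change under DMXAA in BMDMs against that in BMDCs for 51 members, in the WT and CRE labels. Most members sit in the quadrant of falls in both, with Mki67 (-0.18 in BMDCs, -2.19 in BMDMs) and Tk1 (-0.26, -2.61) apart in WT and Rfc3 (1.40, -0.25) in CRE.

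Libraries numbered 3, with fibroblast and little macrophage RNA, had the highest mitotic levels of the series. The median over 19 mitotic members was 24.9 FPKM in WT control 3 and 24.8 in CRE control 3, against 9.47 and 12.3 and against 5.98 and 5.61 in the other BMDM controls. All 19 were higher in control 3 than in the mean of the others, with a median log2 ratio of 1.35 in WT and 2.23 in CRE, and over all 54 members 41 and 43 were higher. Cdkn1a, by contrast, was 27.6 and 20.7 FPKM in these controls, and Pcna 68.1 and 84.2.

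DMXAA libraries numbered 3 were also lower for most members. The log2 ratio to control 3 had a median of -0.36 over 54 members in WT, with 52 lower, and -0.20 in CRE, with 47 lower, against -0.02 and -0.03 over all genes. In libraries 1 and 2 the medians were -1.53 and -1.02. Isg15 also reached less with DMXAA in the libraries numbered 3, at 313 FPKM in WT and 363 in CRE. In libraries 1 and 2 its means were 3720 and 1200. Whether this bears on the smaller falls was not tested. Mki67 went from 17.3 to 9.56 FPKM in WT and from 15.3 to 11.1 in CRE, and Cdkn1a from 27.6 to 32.2 and from 20.7 to 28.8. These are 1 library per group, with no replicate check.

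**Figure D5:**
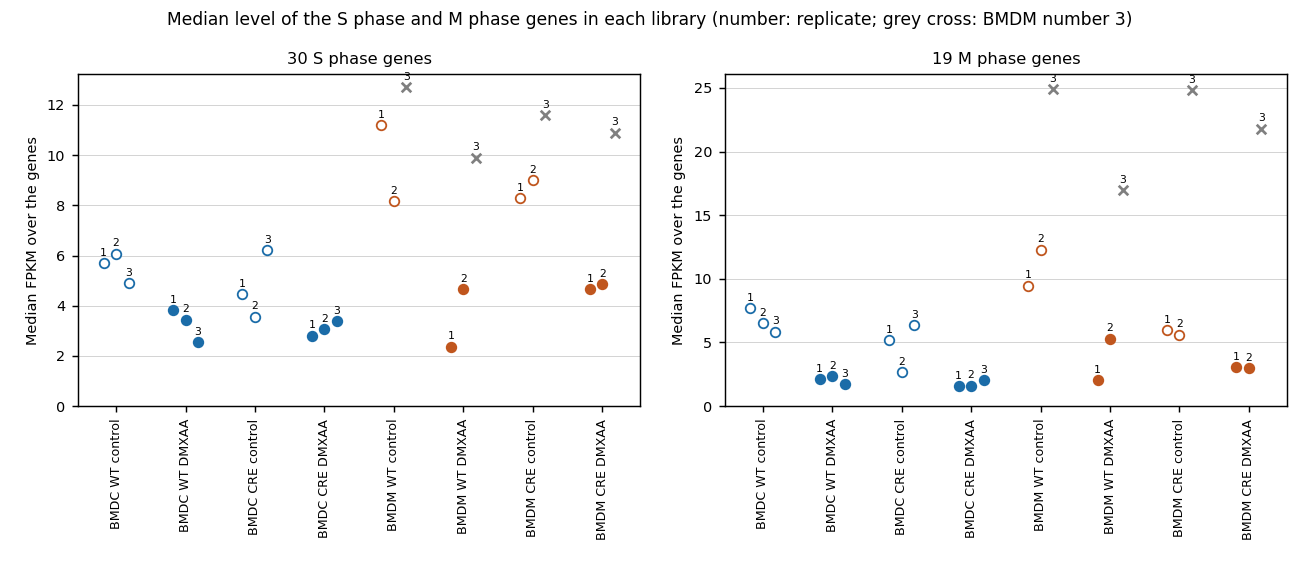
Median FPKM of 30 S phase members and of 19 mitotic members in each library of the 8 groups, with BMDM libraries numbered 3 shown apart. In WT BMDCs the mitotic median falls from 7.70, 6.5 and 5.85 to 2.12, 2.35 and 1.73, and BMDM libraries numbered 3 keep 17 and 21.8 with DMXAA.

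Other genes of the same pathways, 107 that are no members, are given by list. Of 35 tested mitosis genes, 27 fell and 1 rose in WT BMDCs, 25 and 1 in CRE BMDCs, 28 and 1 in WT BMDMs and 5 and 1 in CRE BMDMs. Replication genes fell in 18 of 35, 14 of 35, 28 of 37 and 7 of 37 cases, with 2, 1, 1 and 0 rises. G1/S control genes fell in 12, 7, 11 and 0 of 19 cases and rose in 3, 3, 3 and 1. Over all genes tested, falls made up 15.2%, 11.4%, 21.7% and 3.35% and rises 17%, 14.0%, 18.7% and 7.93% in the same order. Among 12 growth arrest and p53 target genes, rises and falls were 4 and 5, 2 and 3, 5 and 3, and 1 and 0.

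Pttg1, the securin that holds back separase, was the mitosis gene that rose in each response, by 2.77 ± 0.29, 2.66 ± 0.29, 3.19 ± 0.23 and 2.12 ± 0.22 in the same order, from means of 5.46 to 5.93 FPKM in the control groups. Ccnd2, a D-type cyclin, rose in all 4 by 1.62 to 2.86, and was higher in control BMDCs than in control BMDMs by 4.67 ± 0.52 in WT, opposite to Ccnd1. Ccng2, an unconventional cyclin linked to cell cycle arrest, rose by 2.23 ± 0.20, 2.02 ± 0.20 and 2.11 ± 0.21 and was not called in CRE BMDMs (0.18 ± 0.20). Gadd45b, a stress-induced gene, rose by 2.87 ± 0.59 in WT BMDCs. The largest falls were those of Dna2, Kif20a and Ncapd2 in WT BMDCs (-2.45, -2.42 and -2.25), Espl1, Anln and Dna2 in CRE BMDCs (-2.54, -2.45 and -2.14), Sesn1, Exo1 and Clspn in WT BMDMs (-3.88, -3.50 and -3.22), and Dut, Spc25 and Ncaph in CRE BMDMs (-1.62, -1.42 and -1.34).

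The reads of some members cannot be told from those of a neighbour, because the library kit does not mark strand and 9 members share over 10% of their exon bases with a gene on the opposite strand. Fen1 shares 78.8% of its exon bases with the antisense gene Gm10143, Gins2 67.3% with Gse1 and Chaf1a 52.5% with Ubxn6. For Ccnd1 the share was 23.4%, for Ube2c 22.8%, for Ccne2 17.4%, for Rfc4 12.7%, for Ccna2 12.5% and for Rfc5 10.7%. The partner genes of Fen1, Gins2 and Chaf1a reached at most 0.279, 4.17 and 4.81 FPKM in any library. Eif4a2, the partner of Rfc4, reached 87.6 FPKM, and Wsb2, the partner of Rfc5, reached 54.8. The rise of Gins2 in CRE BMDCs, the falls of Chaf1a and Rfc4 and the values of Rfc5 are uncertain in that respect.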

How the data were processed

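Gene expression was measured as polyA RNA in 24 mouse libraries, 3 in each of 8 groups taken from the labels, made from TRIzol-extracted RNA with a NEBNext Ultra kit. Per the submitters' processing notes, CASAVA 1.8, fastp, HISAT2 2.0.5, featureCounts 1.5.0-p3 and DESeq2 1.20.0 were used, with GRCm38. The authors deposited raw counts per gene and FPKM values. The deposited FPKM use an effective library size of 1.03 to 1.32 times the total count in control and 0.687 to 1.33 times in DMXAA libraries. The deposited log2 fold changes and p-values of the authors' own comparisons were not used here. All 48 per-library columns were matched.

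Counts were fitted with the quasi-likelihood test of edgeR 4.0.16 (R 4.3.3) after TMM scaling, keeping genes that reached 1 FPKM in 3 or more of the fitted libraries. The fits held 12 BMDC libraries, 8 BMDM libraries (numbers 1 and 2) and all 20 of these for cell type comparisons. Calls had a Benjamini-Hochberg adjusted p under 0.05 over all genes tested, two-sided. Each SE is the size of the log2 change divided by the square root of F. The members and gene lists were chosen with earlier results of these data known. All 54 members could be named. Values per library are given for a fixed set of 19 and for the 3 largest rises and falls among called members, and other members were named after their values were seen.

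Same-numbered BMDC libraries deviated together within a label (correlations of 0.40 to 0.64 in WT and 0.52 to 0.68 in CRE) and not across labels (-0.50 to 0.05). What a number marks is not given in the labels. DESeq2 1.42.0, other scalings, filters, blocks and left-out libraries were alternatives. The fits were tested on simulated data. Gene models of the 54 members equal those of GENCODE M21. Errors describe the spread between libraries. Figures were drawn with matplotlib 3.10.9.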

Additional observations from a re-analysis of the deposited data

Results flagged for a closer look

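Rfc3 differed in its DMXAA response between the CRE and WT labels of BMDMs by -1.26 ± 0.24 on the log2 scale (edgeR, adjusted p = 0.0387), picked out because the difference between groups itself passed the test. It was 6.16 and 6.29 FPKM in WT control and 15.3 and 11.5 with DMXAA, against 5.23 and 6.14 and then 4.85 and 4.84 in CRE. Both WT DMXAA libraries lay above both WT controls. Both CRE DMXAA libraries lay below both CRE controls, although the CRE change was not called. Over 18 alternatives the difference ran from -1.47 to -0.78, and it missed the threshold in 9 of them. The cause was not tested.

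Rfc3 also differed in its DMXAA response between BMDCs and BMDMs of the CRE label by 1.66 ± 0.30 (edgeR, adjusted p = 0.0166), for the same reason. The BMDC libraries went from 3.17, 4.99 and 3.63 to 8.73, 11.5 and 11.3 FPKM. Over 20 alternatives it ran from 1.5 to 1.87 and missed the threshold in 8. Both results share the CRE BMDM libraries and are not independent of each other.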

How the results depend on the processing

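Of 217 recounts of called members under alternatives, 153 equalled the value given in the report or stayed within 1.5 times it. These were 76 of 77 in BMDC comparisons and 36 of 74 in BMDM comparisons. The BMDC share includes 20, 14 and 14 recounts of label comparisons in which 0 calls stayed 0. For the BMDC responses alone it was 14 of 14 in WT and 14 of 15 in CRE. The cause of the others was not tested. With only the groups compared, calls went from 31 to 20 in CRE BMDCs, from 39 to 24 in WT BMDMs, from 14 to 49 in CRE BMDMs, from 0 to 2 for the cell type difference in WT and from 1 to 0 in CRE. With BMDM number 3 included there were 0 calls for the responses of WT and CRE BMDMs, their difference, CRE against WT with DMXAA and the cell type difference in CRE, and 7 and 8 for control BMDCs against BMDMs in WT and CRE. With CRE BMDM libraries summed, the counts were 0 for the CRE response, the BMDM response difference, CRE against WT with DMXAA and the cell type difference in CRE, and 12 for CRE controls between cell types. With no filter they were 34 (CRE BMDMs), 13 (BMDM response difference), 4 (CRE against WT control), 15 (with DMXAA), 6 and 2 (cell type differences in WT and CRE). DESeq2 gave 31, 7, 1, 14, 4 and 2 in that order. Library totals gave 1 for the cell type difference in WT.

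A replicate block within the label gave 43 calls in WT BMDCs, 41 in CRE BMDCs, 45 in WT BMDMs, 32 in CRE BMDMs and 5 for the BMDM difference, and within cell type and label 8 in WT and 3 in CRE. In BMDMs same-numbered libraries had correlations of 0.55 in WT and 0.02 in CRE over 2 pairs, which is too few to decide whether a number marks a shared culture. Both WT libraries numbered 2 had the higher fibroblast list.

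Leaving out libraries gave 34 to 36 calls in WT BMDCs, 22 to 38 in CRE BMDCs, 36 to 49 in WT BMDMs and 0 to 1 in CRE BMDMs. It gave 0 to 43 for the BMDM response difference, 0 to 45 for CRE against WT control and 2 to 40 with DMXAA. For control BMDCs against BMDMs it gave 13 to 25 in WT and 14 to 22 in CRE, and for the cell type differences 0 to 5 and 0 to 2. Where an arm kept 1 library, that library was assumed to vary like the others. Without both WT BMDM libraries numbered 2, the BMDM fit took its spread from the CRE libraries alone, which lay close together. For CRE against WT with DMXAA in BMDMs, Foxm1 turned to 0.88 and Plk1 to 1.10 without WT DMXAA replicate 2, and without both WT libraries numbered 2 Ccnb1 turned to 1.10, Cdk1 to 0.39, Foxm1 to 0.88 and Plk1 to 1.11, all called. Without WT DMXAA replicate 1, Ccnb1 was at -0.84, Cdk1 at -0.68, Foxm1 at -0.63 and Plk1 at -0.7.

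Of members named under settings other than leaving out, 2125 values kept their call and direction, 111 gained a call, 88 lost one and 57 changed sign without a call. Depth was alike across libraries, so genes near 1 FPKM, such as Pole, Ttk and Fen1, are the least certain.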

Other observations

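The members of 1 complex had a range of responses in WT BMDMs, whose differences were not tested. Mcm2, Mcm3, Mcm4, Mcm5 and Mcm7 changed by -2.79, -2.40, -1.93, -1.97 and -2.60 on the log2 scale, whereas Mcm6 changed by -0.02 ± 0.22 and Cdt1 by -0.27 ± 0.21. In WT BMDCs Mcm6 fell by 0.58 on that scale (± 0.14, edgeR adjusted p = 0.00696), and the other 5 MCM genes ranged from -1.65 to -0.93. In the clamp loader, Rfc3 was at 1.0, Rfc5 at -0.02 and Rfc4 at -1.53 in WT BMDMs. Scaling by library totals in place of TMM moved the median of all genes from -0.08 to -0.6 in that response, which lowers these values together.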
